A study of Mus musculus with 33 samples.

Results

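The 40 genes described here encode mouse glutathione transferases and enzymes of the antioxidant programme controlled by the transcription factor NRF2. They were chosen by name: each is a row of the liver gene count table whose symbol is on the list, and 40 of 40 were found among the 19169 genes of the table. Of these, 22 are glutathione transferases and 18 belong to NRF2 control, glutathione synthesis, NADPH supply, peroxide removal and related steps. All 40 passed the filter on low counts, which left 14934 genes.

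RNA-seq of polyadenylated liver RNA compared wild-type (WT) mice with knock-in (KI) mice labelled Nlrp3A350V/+CreT, which carry a tamoxifen-inducible mutant allele of Nlrp3 with the A350V change. Nlrp3 encodes the sensor of an inflammasome, a complex that matures interleukin-1 beta. For 6 weeks the mice ate either control chow with placebo or a diet that held GS-444217 (ASK1i), which selectively inhibits the stress kinase ASK1, and the question was how the mutant allele and the inhibitor act on the liver. The groups were WT on control chow (10 libraries, 7 female and 3 male), WT on the ASK1i diet (8 libraries, 4 of each sex), KI on control chow (5 libraries, 1 female and 4 male) and KI on the ASK1i diet (10 libraries, 5 of each sex). The age of the mice, the promoter of the Cre transgene and whether WT mice were given tamoxifen are not stated in the sources used here.

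Glutathione is a tripeptide that hepatocytes make in large amounts from glutamate, cysteine and glycine. Glutathione transferases join it to reactive electrophiles such as drug metabolites and lipid peroxidation products. The cytosolic enzymes fall into alpha, mu, pi, theta, omega and zeta classes, while the kappa enzyme is mitochondrial and peroxisomal and the microsomal enzymes sit in membranes. NRF2 is held back by KEAP1 in unstressed cells. When KEAP1 is modified by electrophiles, NRF2 accumulates and binds antioxidant response elements in many of these genes, which are used widely as a readout of NRF2 activity.

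The core of the antioxidant response element, TGACNNNGC on either strand, was looked for between 250 bases before and 50 bases after each annotated start in RefSeq (GRCm38.p6). Of the 36 member genes with an entry, 12 held it (33.3%), against 3781 of all 27025 genes (14.0%). The 12 were Gsta3, Gstm5, Gstm7, Mgst1, Nfe2l2, Txnrd1, Srxn1, Ugdh, Gclm, Prdx1, G6pdx and Pgd. Gsta4, Gstt2, Gclc and Gsr have no entry. The following 60-base stretches, read 5′ to 3′ on the strand of the gene, are shown because they belong to members described below that moved in different directions, and capitals mark the core. A match is a description of these letters and not evidence of binding.
Ugdh, minus strand, chr5:65435941-65436000: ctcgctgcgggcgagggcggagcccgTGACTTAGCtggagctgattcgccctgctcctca
Gstm7, minus strand, chr3:107931710-107931769: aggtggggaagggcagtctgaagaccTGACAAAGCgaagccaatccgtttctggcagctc
Gclm, plus strand, chr3:122245397-122245456: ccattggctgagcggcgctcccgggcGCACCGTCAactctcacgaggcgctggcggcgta
G6pdx, minus strand, chrX:74428904-74428963: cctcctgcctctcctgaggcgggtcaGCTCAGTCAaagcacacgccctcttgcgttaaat
Mgst1, plus strand, chr6:138140445-138140504: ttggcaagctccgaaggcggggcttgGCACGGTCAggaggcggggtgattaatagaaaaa
Gsta3, plus strand, chr1:21240438-21240497: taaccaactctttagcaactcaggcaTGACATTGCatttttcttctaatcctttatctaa

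Total counts ran from 28099685 to 40008114 per library. Nlrp3, the targeted gene, had 51 to 141 counts per WT library, 283 to 564 in KI on control chow and 190 to 409 in 9 of the 10 libraries of KI on the ASK1i diet; a gene count does not show the substitution itself. Its log2 fold change of KI over WT was 2.10 (SE 0.24) on control chow and 1.61 (SE 0.22) on the ASK1i diet. The library labelled KI ASK1i replicate 5 had 69 and lay among the WT libraries on the first principal component (-59.2, against 54.8 to 103 for the other 9). It was kept, and the fits on the ASK1i diet were repeated without it. The sample titles also hold codes from L1 to L8 that no label explains, and no L code holds libraries of both WT and KI on control chow, so that comparison has no value within 1 code.

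KI livers also differed in markers of other cells. The 12 neutrophil markers found in the table summed to 6.68 to 25.8 CPM (counts scaled to a common library size) in WT on control chow, 5.57 to 13.1 in WT on the ASK1i diet, 765 to 3944 in KI on control chow and 742 to 5153 in KI on the ASK1i diet without replicate 5 (12.1 in replicate 5). The 14 macrophage markers summed to 496 to 1439.5, 610 to 885, 2615 to 3695 and 1527 to 3750 CPM in the same order (839 in replicate 5). Hepatocyte markers summed to 118291 to 141692 CPM in WT and 47019 to 70538 CPM in KI on control chow, and to 114604 to 149727 and 47827 to 83706 CPM on the ASK1i diet (117753 in replicate 5). Albumin (Alb) alone held 8.47% to 11.0% of the counts of WT libraries on control chow and 2.12% to 4.16% in KI. So 1 gene could carry most of the hepatocyte sums. Gene by gene, the 10 hepatocyte markers had a median log2 fold change of KI over WT of -0.63 on control chow (7 lower, 1 higher). With ASK1i this median was -0.35 (5 lower, 2 higher). No marker was without counts in any group. All 12 neutrophil and 14 of 14 macrophage markers were higher in KI on control chow, against 27.8% of all genes tested. Their part in the results below was not tested. In whole liver, fewer cells of a type and less RNA per cell cannot be told apart.

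Per kilobase of transcript, the most abundant of the 40 transcripts in WT liver on control chow was Mgst1, the microsomal enzyme, at a level of 2248 CPM per kb ± 251 (SD, n = 10). Gpx1, a selenium-dependent peroxidase, followed at 1262 ± 99.9, and Cat, the catalase of peroxisomes, at 833 ± 126. The ranges of these 3 genes over the 10 libraries did not overlap. Gstp1 (664 ± 488), Gstm1 (572 ± 105) and Gsta3 (557 ± 217) came next on this scale, with ranges that overlapped. At the low end were Gsta1 at 1.76 ± 1.71, Mgst2 at 0.202 ± 0.147 and Slc7a11 at 0.00353 ± 0.00284 CPM per kb.

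The KI genotype went with lower levels of most of these genes on control chow and with higher levels of a few. In KI, 21 of the 40 were lower (52.5%, against 28.9% of all 14934 genes tested) and 7 were higher (17.5%, against 27.8%), by edgeR's quasi-likelihood test with an adjusted p under 0.05. The median log2 fold change of the 40 was -0.41, beside -0.03 for all genes tested. Of the 22 glutathione transferases 14 were lower and 3 higher, with a median of -0.77. Of the 18 other members 7 were lower and 4 higher, with a median of -0.15. Lower genes whose KI and WT libraries did not overlap were 15 of the 40 members (37.5%, against 12.7% of all genes tested), and higher genes without overlap were 5 of 40 (12.5%, against 16.3%).

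**Figure D1:**
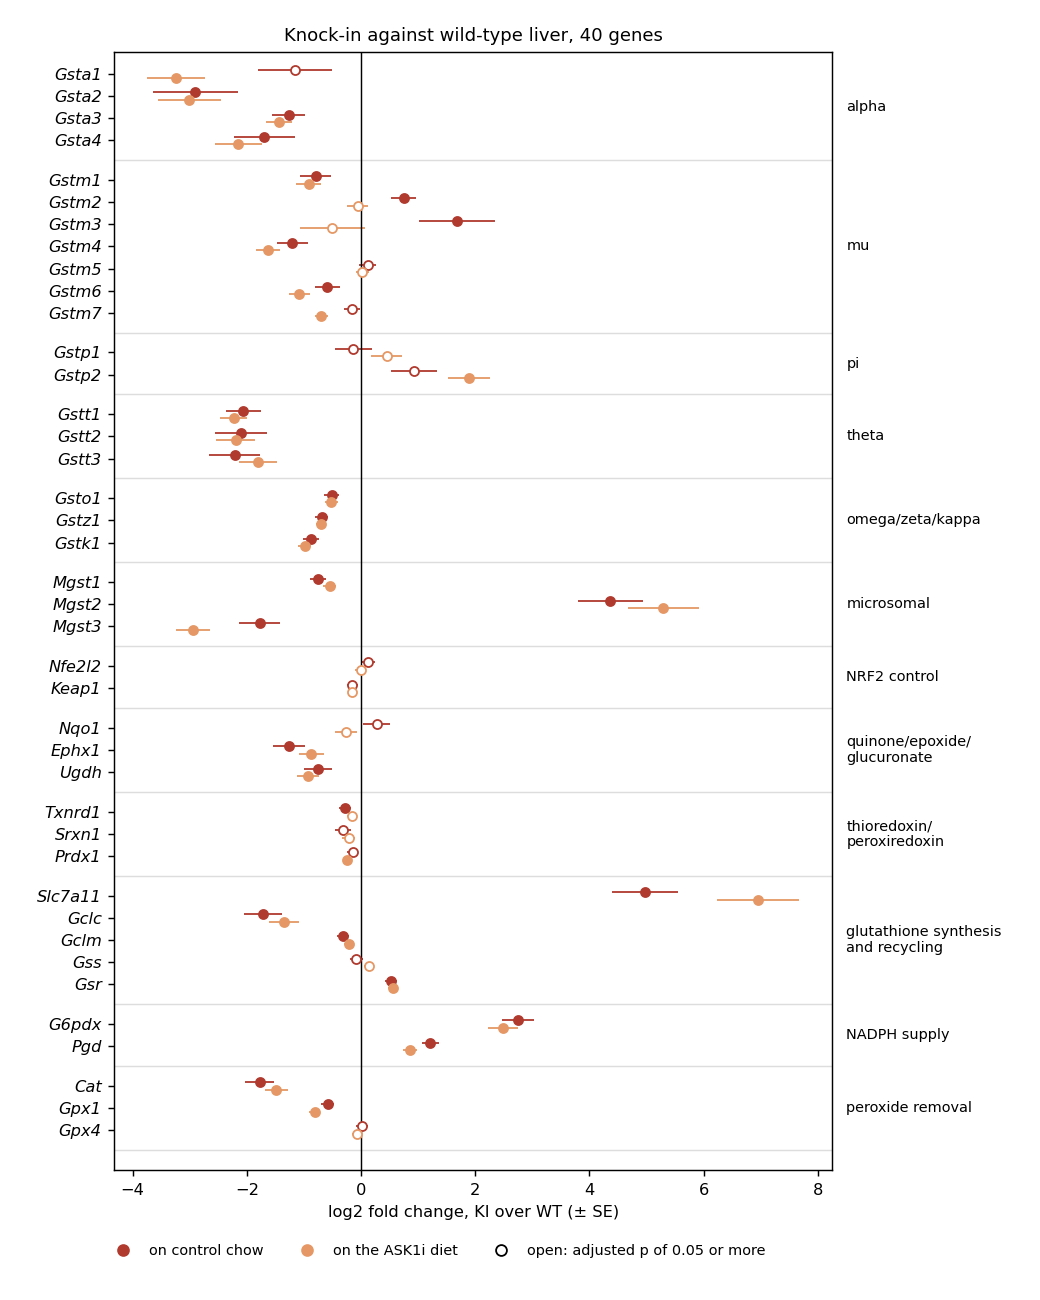
Log2 fold change of KI over WT (x axis, ± SE) for each of the 40 genes (y axis, grouped by role), on control chow (dark red) and on the ASK1i diet (orange); filled points passed an adjusted p of 0.05. Alpha, theta, omega, zeta and kappa transferases lie left of 0 on both diets, while Mgst2, Slc7a11, G6pdx and Pgd lie to the right, from 0.86 to 6.95.

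The theta class, which handles small halogenated compounds, was lower in all 3 members, whose genes lie within 1 stretch of mm10 (Gstt3 to Gstt2, chr10:75774121-75834881). Gstt1 was at 129 CPM in the lowest WT library on control chow, 182 at the median and 254 in the highest, and at 29.0, 39.0, 59.3, 38.8 and 40.4 CPM in the 5 KI libraries. The groups did not overlap, and the log2 fold change was -2.06 (SE 0.31, edgeR adjusted p = 2.31e-06). Gstt2 fell by 2.10 (SE 0.45) and Gstt3 by 2.21 (SE 0.45) on the log2 scale. Neither overlapped between the groups.

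In the alpha class, whose enzymes detoxify lipid hydroperoxides and their aldehydes, 3 of 4 members were lower. Gsta2 went from 21.4 CPM ± 7.24 (SD, n = 10) in WT to 2.38 ± 1.34 (n = 5) in KI, a log2 fold change of -2.90 (SE 0.75). Gsta4, the isoenzyme most active on 4-hydroxynonenal, fell by 1.69 (SE 0.53) and Gsta3 by 1.27 (SE 0.29). Gsta1 did not pass, at 1.54 CPM ± 1.50 in WT and 0.611 ± 0.220 in KI (log2 fold change -1.16, SE 0.65, edgeR adjusted p = 0.128). The coding sequences of Gsta1 and Gsta2 are 97.6% identical, so the counting may have divided their reads wrongly. With the counts of both summed, the fall was 2.69 on the log2 scale (edgeR adjusted p = 0.0019).

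The omega, zeta and kappa enzymes were all lower, by less. Gstk1, the mitochondrial and peroxisomal enzyme, was at 93.2, 107 and 124 CPM in the lowest, median and highest WT library and at 45.9, 50.6, 62.6, 73.5 and 59.3 CPM in KI. Every KI library was below every WT library, with a log2 fold change of -0.87 (SE 0.14, edgeR adjusted p = 8.50e-06). Gstz1, which is also maleylacetoacetate isomerase of tyrosine breakdown, fell by 0.69 (SE 0.11) without overlap. Gsto1, a dehydroascorbate and arsenic reductase, fell by 0.51 (SE 0.13), and 4 of 5 KI libraries were below all WT libraries.

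The mu class, encoded by a cluster on chromosome 3 (Gstm5 to Gstm4, chr3:107895853-108044859 in mm10), was mixed. Gstm4 (-1.20, SE 0.27), Gstm1 (-0.80, SE 0.28) and Gstm6 (-0.59, SE 0.22) were lower on the log2 scale, and Gstm2 (0.74, SE 0.22) and Gstm3 (1.69, SE 0.66) were higher. Gstm5 (0.12) and Gstm7 (-0.16) did not pass. Several of these calls rested on single libraries. The Gstm1 call was lost without KI control replicate 1, the only female of that group, or 1P, that of Gstm6 without either of these or without WT control replicate 8 or 2P. Gstm3 was at 14.5, 230, 165, 54.1 and 34.4 CPM in KI and from 5.15 to 66.7 in WT, so only 2 of 5 KI libraries were above the WT range, and the call was lost without KI control replicate 2 or 3 or WT control replicate 1P. With only these 2 groups in the fit its log2 fold change was 0.42 (edgeR adjusted p = 0.499).

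The pi class did not pass in KI on control chow. Gstp1 (chr19:4035410-4037912 in mm10), the pi enzyme of most tissues, was at 184, 425 and 1571 CPM in the lowest, median and highest WT library and at 351, 578, 700.3, 734 and 860.1 CPM in KI. All KI libraries lay within the WT range, and the log2 fold change, which takes sex into account, was -0.14 (SE 0.32). Its neighbour Gstp2 (chr19:4040287-4042221) was at 3.59 CPM ± 2.41 in WT and 9.13 ± 5.17 in KI (0.93, SE 0.41, edgeR adjusted p = 0.0529). Gstp2 passed in 9 of 33 fits that each left out 1 library. As the coding sequences of the pair are 98.1% identical, the counting may have divided their reads wrongly. These sequences have 12 differing positions. Their first 60 coding bases, from the GENCODE M21 transcripts of the files' build, hold 6 of these, in capitals, and are shown as the 60-base stretch in which the copies differ most. The rest of the coding sequence holds the other 6.
Gstp1: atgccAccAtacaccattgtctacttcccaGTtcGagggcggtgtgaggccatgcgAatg
Gstp2: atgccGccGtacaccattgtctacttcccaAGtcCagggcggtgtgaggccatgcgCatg

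Microsomal transferases split. Mgst1 fell by 0.75 (SE 0.14) on the log2 scale, from 2624 CPM ± 293 to 1698 ± 311, and Mgst3 by 1.78 (SE 0.36), from 12.9 ± 1.69 to 3.55 ± 1.31. Mgst2, which can also make leukotriene C4, was higher. It had 36 counts in all 10 WT libraries and 499 in the 5 KI libraries, a CPM ratio of 21.7 (95% exact interval 15.5 to 31.4, counting error only), and no KI library was as low as a WT library. Its fitted log2 fold change was 4.37 (SE 0.57).

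**Figure D2:**
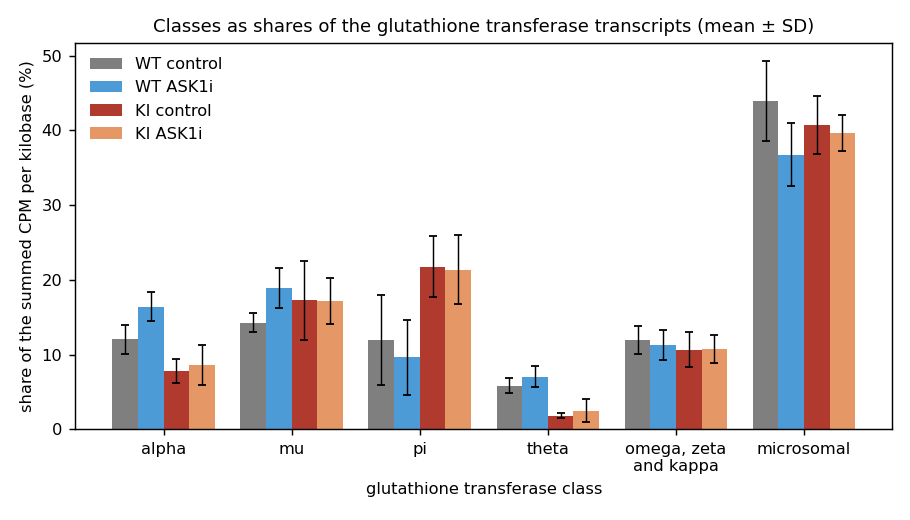
Share of each glutathione transferase class in the summed transcript level of the 22 genes (y axis, percent of CPM per kilobase; bars are means and lines ± SD over 10, 8, 5 and 10 libraries) by class and group. The theta share is 5.86% in WT and 1.82% in KI on control chow, and the pi share 11.9% and 21.7%.

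As a pool, the 22 transferases summed to 5228 CPM per kb ± 966 in WT and 3609 ± 654 in KI on control chow. The theta class made up 5.86% ± 0.974 of this pool in WT and 1.82% ± 0.379 in KI, and no library overlapped (4.10% to 7.06% against 1.54% to 2.48%). The alpha share was 12.0% ± 2.00 and 7.83% ± 1.61. The pi share was 11.9% ± 5.98 in WT and 21.7% ± 4.06 in KI, with ranges that overlapped (5.18% to 26.2% and 17.3% to 27.6%). The share of males differs between these groups, and Gstp1 differed by sex in WT, as described further on. On the ASK1i diet the pool summed to 6281 CPM per kb ± 1266 in WT and 3957 ± 917 in KI, with a pi share of 9.63% ± 5.04 and 21.4% ± 4.59 and a theta share of 7.02% ± 1.39 and 2.50% ± 1.57. Without KI ASK1i replicate 5 the KI shares were 22.6% ± 2.28 for pi and 2.02% ± 0.455 for theta.

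Of the NRF2 control genes, neither passed. Nfe2l2, which encodes NRF2, was at 58.3, 71.3 and 84.3 CPM in the lowest, median and highest WT library and at 71.5, 67.5, 94.7, 76.0 and 80.6 CPM in KI. Keap1, which encodes its inhibitor, was at 35.1, 39.1 and 44.2 CPM in WT and at 31.0, 34.6, 37.0, 42.0 and 33.1 CPM in KI. The libraries overlapped for both genes, with log2 fold changes of 0.12 (SE 0.12) and -0.15 (SE 0.09). Nqo1, the quinone reductase often taken as a marker of NRF2 activity, did not pass either (0.28, SE 0.24), with 7.53, 15.0 and 20.2 CPM in WT and 15.9, 20.4, 21.3, 16.3 and 9.44 CPM in KI. Ephx1, the microsomal epoxide hydrolase, fell by 1.27 (SE 0.28), and Ugdh, which makes UDP-glucuronate for glucuronidation, by 0.76 (SE 0.25). The Ugdh call was lost without KI control replicate 1.

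Glutathione synthesis and recycling moved in both directions. Gclc, the catalytic subunit of the rate-limiting glutamate-cysteine ligase, was at 104, 164 and 294 CPM in the lowest, median and highest WT library and at 41.2, 53.6, 61.9, 72.6 and 45.9 CPM in KI. All 5 KI libraries were below all 10 WT libraries, with a log2 fold change of -1.71 (SE 0.34, edgeR adjusted p = 8.72e-05). Gclm, the modifier subunit, was at 81.7, 103 and 126 CPM in WT and at 73.1, 82.1, 100.3, 105 and 82.9 CPM in KI. These ranges overlapped in 4 of 5 KI libraries, and the small log2 fold change of -0.31 (SE 0.10) was lost as a call without KI control replicate 1 or 1P. Gss, the second enzyme of synthesis, did not pass (-0.08, SE 0.11).

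Slc7a11, the cystine importer that supplies cysteine for glutathione, was near absent in WT. It had 10 counts over the 10 WT libraries (3 of them at 0) and 221 over the 5 KI libraries, whose CPM were 1.49, 1.01, 1.56, 0.918 and 0.774. The ratio of the group totals scaled to library size was 34.6 (95% exact interval 18.5 to 73.2, counting error only), without overlap between the groups, and the fitted log2 fold change was 4.97 (SE 0.58, edgeR adjusted p = 4.28e-08). Gsr, the glutathione reductase that uses NADPH, was at 52.1, 59.7 and 69.3 CPM in WT and at 78.2, 122, 101, 78.4 and 76.5 CPM in KI. Every KI library was above every WT library, and the log2 fold change was 0.53 (SE 0.10).

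Both NADPH-producing enzymes of the pentose phosphate pathway were higher. G6pdx, glucose-6-phosphate dehydrogenase, was at 4.20, 6.35 and 7.60 CPM in the lowest, median and highest WT library and at 43.5, 58.8, 38.6, 29.2 and 39.8 CPM in KI. The groups lay far apart, with a log2 fold change of 2.75 (SE 0.29, edgeR adjusted p = 1.09e-08). Pgd, phosphogluconate dehydrogenase, was at 29.9, 34.0 and 36.4 CPM in WT and at 70.2, 94.0, 91.1, 76.7 and 76.3 CPM in KI, also without overlap (1.22, SE 0.15, edgeR adjusted p = 6.59e-08).

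Of the peroxide-removing enzymes, Cat was at 1761, 2082 and 2823 CPM in the lowest, median and highest WT library and at 596, 756, 631, 684 and 611 CPM in KI. The highest KI library was far below the lowest WT library, and the log2 fold change was -1.78 (SE 0.26, edgeR adjusted p = 1.18e-06). Gpx1 fell by 0.58 (SE 0.12) without overlap. Gpx4, the peroxidase that repairs membrane lipid peroxides, did not pass (0.02, SE 0.11), at 163, 183 and 209.9 CPM in WT and 169.8, 188, 235, 216 and 162 CPM in KI. In the thioredoxin branch, Txnrd1 (thioredoxin reductase) fell by 0.28 (SE 0.10), a call lost without KI control replicate 1. Srxn1 (sulfiredoxin, -0.31, SE 0.14) and Prdx1 (peroxiredoxin, -0.15, SE 0.09) did not pass.

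**Figure D3:**
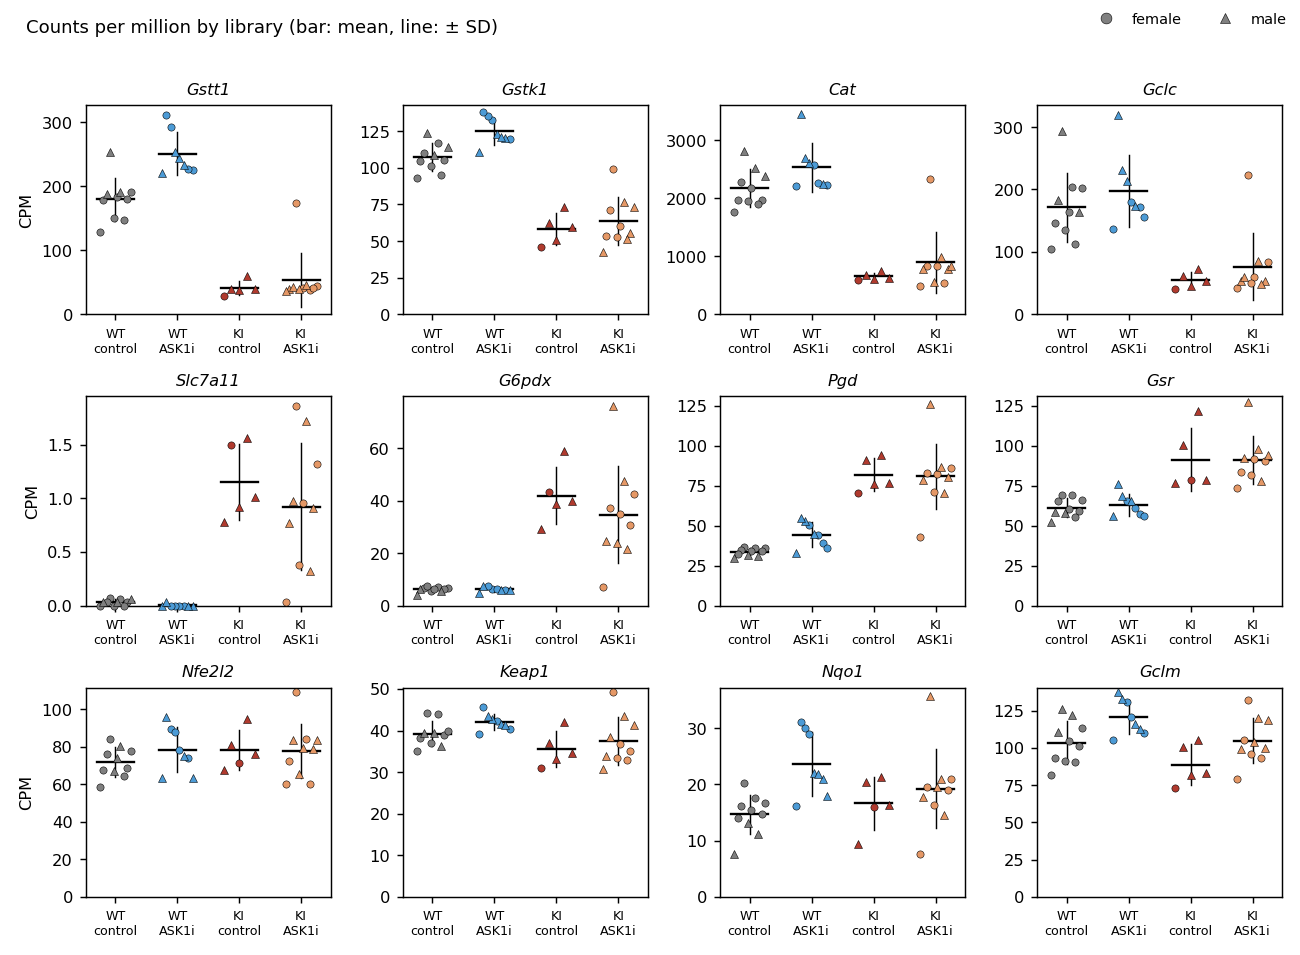
Level of 12 genes in each library (y axis, CPM, from 0) by group (x axis); circles are female and triangles male libraries, bars are means and lines ± SD, drawn down to 0 at most. The single KI ASK1i point among the WT values of Gstt1, Cat and G6pdx is replicate 5, at 174, 2327 and 7.25 CPM.

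When the L code replaced the title set as a covariate, 6 members were higher and 12 lower on control chow. Fewer of all genes were called with that covariate too, as given in the last section. The calls of Gsta2, Gsta4, Gstm1, Gstm3, Gstm4, Gstm6, Gsto1, Ephx1, Ugdh and Txnrd1 were lost in that fit. Those of Gstt1, Gstk1, Cat, Gclc, Slc7a11, G6pdx, Pgd and Gsr were kept. In male libraries alone, 6 members were higher and 18 lower (60% in either direction, against 41.9% of all genes in that fit).

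On the ASK1i diet the difference between the genotypes was much the same in number. In KI, 23 of the 40 genes were lower (57.5%, against 28.8% of all genes tested) and 6 higher (15.0%, against 30.3%), with a median of -0.53 beside 0.01 for all genes. Of the members, 20 were lower on both diets and 5 higher on both (Mgst2, Slc7a11, Gsr, G6pdx and Pgd). The share of all genes called on both diets is not given, so these counts have no background beside them. Gsta1, Gstm7 and Prdx1 were lower and Gstp2 higher on the ASK1i diet alone, and Gstm2 and Gstm3 were higher and Txnrd1 lower on control chow alone; none of these differences between diets passed as an interaction. The libraries did not overlap in 7 lower members (17.5%, against 3.91% of all genes tested) and 1 higher member (2.50%, against 2.36%). The higher member was Slc7a11, and its gap rests on library size alone. KI replicate 5 (0.0305 CPM) and WT replicate 7 (0.0293 CPM) each had 1 count. Without KI ASK1i replicate 5, 26 members were lower and 6 higher, with a median of -0.62, and each of the 29 called log2 fold changes was farther from 0. Calls over all genes varied too. The 33 fits that each left out 1 library called 28 to 32 members and 8371 to 9435 of all genes.

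Mgst3 and Gstt1 had the smallest p among the lower genes. Mgst3, a microsomal transferase and peroxidase, was at 15.6, 21.5 and 37.1 CPM in the lowest, median and highest WT library on the ASK1i diet and at 0.973, 2.44 and 10.5 CPM in KI, the highest being replicate 5 and the next 3.03. The groups did not overlap, and the log2 fold change was -2.94 (SE 0.29, edgeR adjusted p = 3.12e-09). Gstt1 was at 220.4, 239 and 312 CPM in WT and at 35.8, 41.0 and 174 CPM in KI, again with replicate 5 at the top and without overlap (-2.23, SE 0.24, edgeR adjusted p = 8.24e-09). Without replicate 5 the log2 fold changes were -3.37 for Mgst3 and -2.66 for Gstt1.

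The alpha class was lower in all 4 members on this diet. Gsta1 fell by 3.24 (SE 0.51), from 8.84 CPM ± 6.52 (n = 8) to 0.852 ± 0.685 (n = 10), and all 10 KI libraries were below all 8 WT libraries. Gsta2 fell by 3.00 (SE 0.55) and by 4.25 without replicate 5, where it was at 56.1 CPM against a highest of 6.63 in the other 9. Gsta4 fell by 2.15 (SE 0.41), with a log2 fold change of -2.96 without replicate 5, and Gsta3 by 1.44 (SE 0.23). Among the mu members, Gstm4 (-1.63), Gstm6 (-1.08), Gstm1 (-0.92) and Gstm7 (-0.69) were lower, and Gstm2 (-0.06), Gstm3 (-0.50) and Gstm5 (0.02) did not pass.

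The other falls on the ASK1i diet were of Gstt2 (-2.20, or -2.74 without replicate 5), Gstt3 (-1.80, or -2.20), Cat (-1.48, or -1.80), Gclc (-1.35, or -1.77), Gstk1 (-0.98, or -1.10), Ugdh (-0.93, or -1.14), Ephx1 (-0.87, or -1.16), Gpx1 (-0.81), Gstz1 (-0.70), Mgst1 (-0.55), Gsto1 (-0.52), Prdx1 (-0.24) and Gclm (-0.21) on the log2 scale. The Gclm call was lost in 10 of 33 fits that each left out 1 library. Gpx4 (-0.07), Nfe2l2 (-0.01), Keap1 (-0.15), Nqo1 (-0.26), Txnrd1 (-0.16), Srxn1 (-0.22), Gss (0.13) and Gstp1 (0.45) did not pass. Keap1, Txnrd1 and Srxn1 passed as lower without replicate 5, at -0.21, -0.20 and -0.27, and Gstp1 passed as higher without WT ASK1i replicate 2.

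Slc7a11 and G6pdx again had the smallest p among the higher genes, while by fold Mgst2 (5.30) stood between them. Slc7a11 had 1 count over the 8 WT libraries and 333 over the 10 KI libraries, with CPM of 0.0305, 0.932 and 1.85 in the lowest, median and highest. The ratio scaled to library size was 247 (95% exact interval 44.0 to 9785), and 7 of the 8 WT libraries were at 0. G6pdx was at 4.77, 6.05 and 7.33 CPM in WT and at 7.25, 32.8 and 76.2 CPM in KI; replicate 5 was within the WT range and the next lowest KI library was at 21.7 CPM (log2 fold change 2.49, SE 0.26, edgeR adjusted p = 7.07e-09). Pgd (0.86, SE 0.12), Gsr (0.56, SE 0.09) and Gstp2 (1.89, SE 0.37) were higher. Gstp2 averaged 13.9 CPM in KI on this diet and its near-identical copy Gstp1 663, so wrongly divided reads could weigh on Gstp2. Mgst2 was also higher, with 15 counts in WT and 786 in KI, of which replicate 5 had 0. The libraries with the L1 code were also fitted alone: 2 WT and 4 KI on the ASK1i diet, together with KI control replicate 1P. In that fit 19 members were lower and 7 higher on this diet (65.0% in either direction, against 37.6% of all genes).

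In WT mice the inhibitor diet went with higher levels of a few transferases and of Ugdh and Nqo1. Of the 40 genes 6 were higher on the ASK1i diet than on control chow (15.0%, against 1.13% of all genes tested) and 0 were lower: Gsta1 (2.50), Ugdh (0.92), Gstm4 (0.85), Gstm2 (0.84), Nqo1 (0.78) and Gstm7 (0.64) on the log2 scale. The log2 fold change was above 0 in 34 of 40 members (85.0%, against 49.5% of all genes tested), with a median of 0.25 beside -0.00 for all genes. An unadjusted p under 0.05 was reached by 21 members (52.5%, against 13.9%). All 7 mu members were above 0, from 0.32 (Gstm5) to 2.02 (Gstm3).

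Gstm7, a mu transferase, was at 29.4, 35.3 and 57.3 CPM in the lowest, median and highest control library and at 41.7, 66.3 and 75.0 CPM on the ASK1i diet. Of the 8 libraries on the diet, 5 were above every control library (0.64, SE 0.12, edgeR adjusted p = 0.00255). Gsta1 was at 0.377, 0.860 and 5.18 CPM on control chow and at 2.26, 7.08 and 20.7 CPM on the diet, with 5 of 8 libraries above the control range (2.50, SE 0.49, edgeR adjusted p = 0.00488). Gsta2, its near-identical copy, did not pass (1.56, SE 0.52, edgeR adjusted p = 0.146) although its 8 libraries on the diet, from 37.4 to 87.3 CPM, were all above the control range of 11.5 to 31.2. With the 2 genes summed, the log2 fold change was 1.62 and the call was lost (edgeR adjusted p = 0.112).

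Ugdh was the 1 called member without overlap (2.50%, against 0.161% of all genes tested), at 63.6 to 96.7 CPM on control chow and 107 to 281 on the diet (0.92, SE 0.20, edgeR adjusted p = 0.0108). Nqo1 was at 7.53, 15.0 and 20.2 CPM on control chow and 16.2, 21.9 and 31.1 CPM on the diet, with 6 of 8 libraries above the control range. Its call (0.78, SE 0.20, edgeR adjusted p = 0.0380) was lost in 10 of 33 fits that each left out 1 library, and that of Gstm4 in 11 of 33. Gstm2 rose from 64.4 CPM ± 10.9 to 120.2 ± 34.2. Gstm3 (2.02, SE 0.59), Gstm6 (0.67, SE 0.18), Mgst3 (0.86, SE 0.28), Gstt3 (0.76), Gsta3 (0.62), Gstm1 (0.57), Gstt1 (0.50), Gsta4 (0.46), Gstt2 (0.41), Pgd (0.37), Gpx4 (0.28) and Prdx1 (0.24) did not pass, nor did Gclm (0.19), Gclc (0.18) and Gsr (0.03).

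Male and female libraries are unevenly spread over the WT groups and over the L codes, and the 6 calls depended on the libraries taken. In the 8 WT libraries with the L6 code (4 on each diet), the log2 fold changes were 3.16 (Gsta1), 0.91 (Ugdh), 0.78 (Nqo1), 0.76 (Gstm2), 0.48 (Gstm4) and 0.33 (Gstm7), and no member passed, nor did any other gene. With the L code as a covariate 1 passed, Gsta1 (2.99, edgeR adjusted p = 0.0156). In males alone the log2 fold changes ranged from 0.37 to 1.55, again with 0 calls. Without KI ASK1i replicate 5, a library of neither group in the same fit, 11 members passed, among 375 genes in all. With only the WT groups in the fit 18 of 38 members tested did (47.4%, against 5.11% of all genes in that fit).

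**Figure D4:**
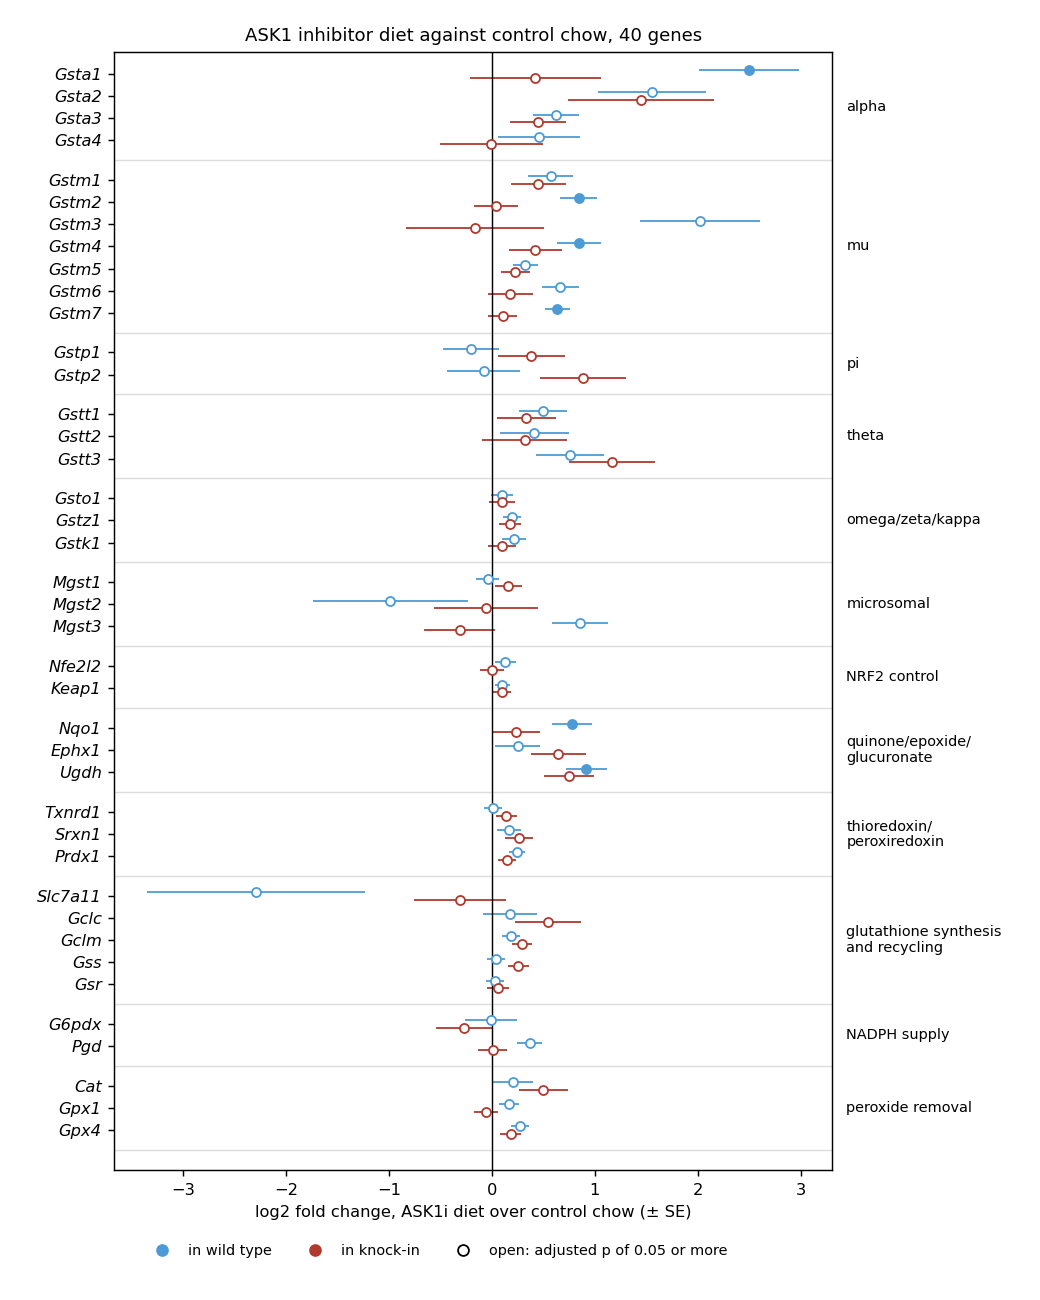
Log2 fold change of the ASK1i diet over control chow (x axis, ± SE) for each of the 40 genes (y axis, grouped by role), in WT (blue) and KI (red); filled points passed an adjusted p of 0.05. In WT 34 genes and in KI 33 lie right of 0, and 6 in WT and 0 in KI passed.

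In KI mice no member passed for the diet by edgeR (0 of 40, against 0.0536% of all genes tested), and 7 had an unadjusted p under 0.05 (17.5%, against 10.3% of all genes). DESeq2 called 0 members too. The log2 fold change was above 0 in 33 of 40 (82.5%, against 55.9% of all genes), with a median of 0.18 beside 0.03 for all genes. Without KI ASK1i replicate 5 the median was 0.12 and 31 of 40 were above 0, with a turn of sign for Gstt1 (0.33 to -0.02), Gstt2 (0.32 to -0.11), Mgst2 (-0.06 to 0.13) and Nfe2l2 (0.00 to -0.06). Gsta2 went from 1.45 to 0.35 and Gsta4 from -0.00 to -0.65, and 0 members passed. The smallest p belonged to Ugdh, at 34.9, 55.2, 59.7, 64.3 and 48.4 CPM on control chow and 46.2, 71.3 and 159 CPM in the lowest, median and highest library on the diet (0.75, SE 0.24, edgeR adjusted p = 0.400). Of the 10 libraries on the diet, 8 were above every control library. The highest was replicate 5, without which the highest was 134 CPM and the log2 fold change 0.57 (SE 0.20, edgeR adjusted p = 0.460).

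The effects of the diet in the 2 genotypes were compared directly. No member passed the interaction by edgeR (0 of 40, as for 0% of all genes tested), with a smallest adjusted p of 0.478, and DESeq2 called 0 members. An unadjusted p under 0.05 was reached by 5 (12.5%, against 8.38% of all genes): Gstm2 (-0.80, SE 0.28), Gstm7 (-0.53, SE 0.18), Mgst3 (-1.17, SE 0.44), Gsta1 (-2.08, SE 0.79) and Gstm3 (-2.19, SE 0.86), each with a smaller log2 difference in KI than in WT. Without replicate 5 the smallest adjusted p was 0.0816, for Mgst3 (-1.50). A p over the threshold does not show that the diet acted alike in both genotypes.

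Gstp1 and Gstm6 were higher in male than in female WT livers (2 of 40, against 0.951% of all genes tested), by edgeR in a model with sex fitted within genotype. Gstp1 was at 184, 328 and 579 CPM in the lowest, median and highest of 11 female libraries and at 408, 553 and 1579 CPM in 7 male ones. The sexes overlapped, and the log2 fold change was 1.28 (SE 0.26, edgeR adjusted p = 0.00697). Gstm6 was at 25.9, 35.9 and 101 CPM in females and 46.9, 81.7 and 127 CPM in males (0.77, SE 0.17, edgeR adjusted p = 0.0169). The Gstp1 call was lost without WT control replicate 8, a male at 1571 CPM, and the Gstm6 call without that library or WT ASK1i replicate 2, also a male. With the L code as a covariate neither passed, at 1.23 for Gstp1 (edgeR adjusted p = 0.0638) and 0.69 for Gstm6 (edgeR adjusted p = 0.130). The difference of the sex effect between KI and WT was not called for either gene (-0.84 and -0.57, edgeR adjusted p = 0.550 and 0.531).

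**Figure D5:**
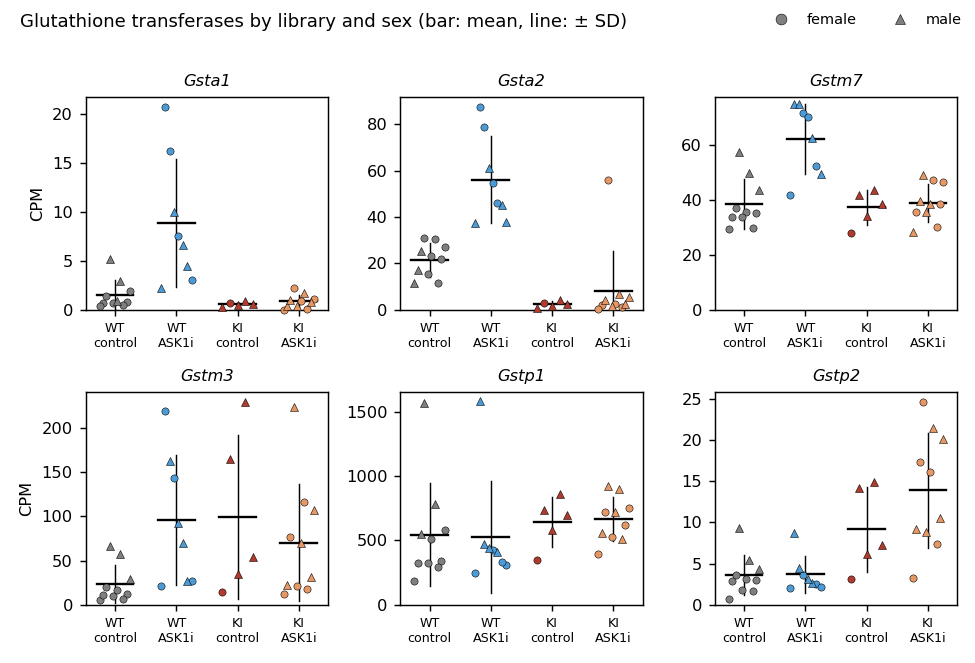
Level of 6 transferases in each library (y axis, CPM, from 0) by group (x axis); circles are female and triangles male libraries, bars are means and lines ± SD, drawn down to 0 at most. Gsta2 on the ASK1i diet in WT lies above WT on control chow (37.4 to 87.3 against 11.5 to 31.2 CPM), and 1 male library in each WT group holds the highest Gstp1, at 1571 and 1579 CPM.

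Other genes of the pathway, taken from lists, are given for KI against WT on control chow. Of all genes tested, 28.9% were lower and 27.8% higher in that comparison. Of 13 genes on the list for cysteine supply from methionine 10 were lower, including Cbs (-0.92, SE 0.17), cystathionine beta-synthase, with 1 higher, Mat2a (0.43, SE 0.11). Mpst (-1.14, SE 0.14), counted among the lower genes of this list, does not itself supply cysteine. Of 14 genes of glutathione breakdown and export 6 were higher and 5 lower; Abcc1, an exporter of conjugates, was higher (1.46, SE 0.16) and Abcc3 lower (-0.76, SE 0.11), and Ggt1, which cleaves extracellular glutathione, was higher (3.13, SE 0.62). Of 27 other thioredoxin, peroxiredoxin, peroxidase and superoxide dismutase genes 15 were lower, such as Prdx6 (-0.79, SE 0.12), and 7 higher, such as Gpx3 (5.02, SE 0.51). Of 31 other NRF2 targets tested 12 were lower, among them the NADPH source Me1 (-1.63, SE 0.27), and 10 higher, among them Hmox1 (1.43, SE 0.20), haem oxygenase 1. Of 13 NRF2 regulators and partners 4 were lower, including Cul3 (-0.28, SE 0.06), and 2 higher, including Mafk (0.42, SE 0.16). These counts of regulators are near or below the shares among all genes.

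The remaining cell markers moved as follows on control chow, beside 28.9% lower and 27.8% higher of all genes tested. Of 10 hepatocyte markers 7 were lower and 1 higher, and of 9 pericentral and 8 periportal hepatocyte markers 7 and 6 were lower with 0 higher. Of 8 bile duct markers 2 were higher, which is near the share among all genes. In WT on the ASK1i diet, 4 of the 31 other NRF2 targets were higher, against 1.13% of all genes tested. They were Htatip2 (0.65, SE 0.13), Tkt (0.44, SE 0.09), BC021614 (0.82, SE 0.17) and Taldo1 (0.31, SE 0.08). The exporter Abcc4 (1.04, SE 0.15) and the pericentral marker Cyp1a2 (1.26, SE 0.26) were also higher there, and no gene of these lists was lower.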

How the data were processed

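Polyadenylated RNA of fresh frozen mouse liver was sequenced after TruSeq Stranded mRNA preparation, per the labels' protocols. CASAVA 1.8.2, STAR 2.4 and RSEM 1.2.14 with build mm10 are named in the submitters' processing notes; their settings are not stated there. The authors deposited expected counts per gene, which RSEM estimates by dividing shared reads among genes, and 91.4% to 93.7% per library were whole numbers. They were rounded and fitted with edgeR 4.0.16 in R 4.3.3 (TMM, filterByExpr by group, robust quasi-likelihood F test, two-sided), with group, sex and title set (numbered, or numbered with a P) as terms over all 33 libraries. P-values were adjusted by the Benjamini-Hochberg method across the 14934 genes tested, with a threshold of 0.05. The prior count behind log2 fold changes was 0.125, and SE is their standard error. CPM uses TMM-scaled library sizes, and CPM per kb the GENCODE transcript matched by RefSeq accession.

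Groups, sexes and numbers came from the labels. Since these do not tie libraries to single mice, the tests see only the variation among libraries, which may be technical. No 2 libraries of a group had near-identical counts (lowest chi-square per gene 26.3 over 128 pairs). That comparison cannot tell whether 2 separately prepared libraries came from 1 mouse. The 40 members, 11 lists (161 of 165 entries matched) and tests were chosen with earlier results of these data known. The lists were the 5 pathway lists and 6 marker lists given in the text. Library values are given for the 3 called members with the smallest p in each direction on control chow, for the first 2 in each other comparison, and for Nfe2l2, Keap1, Nqo1, Gclc, Gclm, Gsr and Gpx4. From each list, genes were named among the 3 called genes with the smallest p in each direction. Library values of Gsta2, Gstm3, Gstp1 and Ugdh and the list genes called for the diet were added after their values were seen. The fit was tested on simulated data. Alternatives were RLE scaling, DESeq2 1.42.0, other filters and covariates, a replicate block, subsets of libraries and each library left out. Male, L1 and L6 libraries alone and summed copies were chosen after seeing the data.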

Additional observations from a re-analysis of the deposited data

Results flagged for a closer look

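In each group of 5 to 10 libraries, the highest and lowest library of every member were compared with their nearest neighbour. Dixon's criterion at 95% was used. Chance meets it in about 1 of 20 groups if values are independent and normally distributed, which CPM values need not be. The criterion was met in 26 of 160 groups, in 21 genes, each time by the highest library. The library labelled KI ASK1i replicate 5 accounted for 10, and was the highest of its group in each: Gsta2 56.1, Gsta4 86.3, Gstt1 174, Gstt2 103, Gsto1 153, Mgst3 10.5, Nfe2l2 109, Ephx1 481, Gclc 223 and Cat 2327 CPM. Its neutrophil markers summed to 12.1 CPM.

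WT ASK1i replicate 2, a male, stood above its group for Gstm1 (1845 CPM), Gstp1 (1579 CPM), Gstp2 (8.72 CPM) and Cat (3452 CPM). WT control replicate 1P stood above for Gclc (294 CPM) and Gss (73.1 CPM), replicate 8 for Gstp1 (1571 CPM) and replicate 2P for Gstt1 (254 CPM). KI ASK1i replicate 2 was highest for Gsr (127 CPM) and Pgd (126 CPM), replicate 3 for Gstm3 (224 CPM) and replicate 6 for Nqo1 (35.8 CPM). The other high values were Gstz1 in KI control replicate 4 (462 CPM), Prdx1 in WT ASK1i replicate 1P (1271 CPM), Gss in WT ASK1i replicate 7 (78.2 CPM) and Slc7a11 in the same library (0.0293 CPM, a single count).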

How the results depend on the processing

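For KI against WT on control chow, 28 members were called, and 18 with the L code as a covariate. For the diet in WT, 6 were called, against 1 with the L code, 1 in numbered titles only, 18 with only the 2 groups compared in the fit, 0 in males alone and 0 in L6 libraries alone; leaving out each library in turn gave 4 to 11. For sex in WT, 2 were called (5.00%, against 1.85% of all genes tested), and 0 with the L code. In numbered titles 1 was called (2.50%, against 0.282% of all genes in that fit). In WT libraries alone 8 of 38 members tested were called (21.1%, against 6.62%). Leaving out each library gave 0 to 3 members, among 90 to 577 genes in all. With the replicate number as a block, 27, 29, 4, 0 and 0 members were called in the genotype, diet and interaction comparisons and 0 by sex. The numbers do not pair the libraries: deviations of 37 same-numbered pairs correlated from -0.21 to 0.36, and 14 pairs exceeded 0.1. KI against WT on the ASK1i diet stayed within 26 to 32 calls, and the diet in KI and the interaction at 0, in every fit run. Over all genes, calls for the diet in WT went from 209 to 366 with DESeq2, 375 without KI ASK1i replicate 5, 157 with no count filter, 133 with the block, 23 with the L code and 19 in numbered titles, while 5.11% of genes were called with WT libraries alone. Those for genotype on control chow went from 8466 to 5103 with the L code. Where calls changed, the cause was not tested. No member's log2 fold change reversed as a call under these fits. Depth limits Slc7a11 and Mgst2 in WT, whose folds rest on 1 to 36 counts.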
